A study of Homo sapiens with 20 samples.

Results

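The genes described here are 7 transcription and growth factors of the Müllerian duct and the endometrial epithelium, PAX2, PAX8, SOX17, WNT7A, FGF18, HOXA11 and HOXA10. They were taken by name from the count table, which lists all 7 among its 12558 genes. All cells were HEC-1A, a cell line derived from a human endometrial adenocarcinoma. EIF4G2KD cells stably carried 1 lentiviral shRNA against EIF4G2, a translation initiation factor also called DAP5, and Control cells carried an shRNA against GFP, both after puromycin selection. Each was separated on magnetic beads and then by FACS on CD133, a surface glycoprotein encoded by PROM1 and used as a marker of stem-like tumor cells. The 4 populations were CD133− EIF4G2KD, CD133− Control, CD133+ EIF4G2KD and CD133+ Control, with 5 libraries in each of the first 3 and 4 in the last. Each library was made from 15000 sorted cells by bulk MARS-seq, a method that reads mRNA at its 3′ end. The replicates share 1 line and 1 shRNA, and the label of CD133+ Control replicate 3 says that it failed quality control, so it has no counts.

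The Müllerian ducts are the paired tubes of the embryo that form the oviducts, the uterus and the upper vagina. PAX2 and PAX8 are paired-box transcription factors of the duct epithelium, and PAX8 is a widely used marker of tumors of Müllerian origin. SOX17, a high-mobility-group transcription factor, is expressed in endometrial epithelium, where it is recurrently mutated in endometrial cancer, and in mice it is needed for the uterine glands. WNT7A is a secreted ligand of the uterine epithelium that in mice keeps up the expression of the posterior HOX genes, of which HOXA10 patterns the uterus and HOXA11 its lower part and both act in embryo implantation. FGF18 is a secreted fibroblast growth factor that signals through FGF receptors.

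PAX2 and FGF18 were higher in CD133− than in CD133+ cells of both shRNAs, and WNT7A and HOXA11 were lower in CD133+ EIF4G2KD than in CD133+ Control, so the 300 bases around the start of these 4 genes are shown first (250 bases before and 50 after, 5′ to 3′ on the strand of the gene, RefSeq on GRCh38.p14). The table of promoters matched 6 of the 7 genes. Capitals mark matches, on either strand, to the letters of 7 motifs, namely the TATA box (TATAAA), the GC box (GGGCGG), the CCAAT box (CCAAT), a SOX core (ACAAT), a posterior HOX core (TTTAT, which overlaps the TATA box on its other strand), a paired-domain core (GTCANGC) and a TCF/LEF core (CTTTGA). The windows are chr10:100735146-100735445 (plus strand) for PAX2, chr5:171419397-171419696 (plus strand) for FGF18, chr3:13880022-13880321 (minus strand) for WNT7A and chr7:27185183-27185482 (minus strand) for HOXA11.
PAX2: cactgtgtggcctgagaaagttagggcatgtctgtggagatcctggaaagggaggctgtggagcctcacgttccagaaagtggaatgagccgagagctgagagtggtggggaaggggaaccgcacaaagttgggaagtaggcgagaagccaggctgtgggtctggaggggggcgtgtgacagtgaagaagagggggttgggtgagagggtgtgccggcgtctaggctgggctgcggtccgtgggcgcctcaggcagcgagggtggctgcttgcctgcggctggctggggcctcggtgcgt
FGF18: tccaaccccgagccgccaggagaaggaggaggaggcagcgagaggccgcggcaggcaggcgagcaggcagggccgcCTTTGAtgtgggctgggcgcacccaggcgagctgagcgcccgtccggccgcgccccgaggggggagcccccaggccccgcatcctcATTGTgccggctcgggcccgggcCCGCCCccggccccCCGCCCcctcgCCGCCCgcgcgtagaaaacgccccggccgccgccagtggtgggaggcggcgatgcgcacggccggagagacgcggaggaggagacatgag
WNT7A: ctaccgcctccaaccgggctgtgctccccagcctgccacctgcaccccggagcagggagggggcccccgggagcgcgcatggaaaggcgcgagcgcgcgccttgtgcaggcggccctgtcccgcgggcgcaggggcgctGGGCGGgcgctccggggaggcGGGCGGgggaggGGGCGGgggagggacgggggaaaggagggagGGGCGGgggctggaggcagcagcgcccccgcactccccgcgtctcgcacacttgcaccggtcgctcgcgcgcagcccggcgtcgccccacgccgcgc
HOXA11: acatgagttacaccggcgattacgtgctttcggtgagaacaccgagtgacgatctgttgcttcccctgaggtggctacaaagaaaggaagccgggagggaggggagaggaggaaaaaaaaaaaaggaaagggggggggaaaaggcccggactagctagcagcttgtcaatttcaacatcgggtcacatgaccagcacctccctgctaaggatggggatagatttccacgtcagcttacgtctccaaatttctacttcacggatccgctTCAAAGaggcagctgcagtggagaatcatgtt
Only 1 window was read per gene, so any other start of these genes is not covered. The PAX2 window held none of the 7 motifs. The FGF18 window held 3 GC boxes, 1 SOX core and 1 TCF/LEF core, and the WNT7A window held 4 GC boxes and no other of the motifs. The HOXA11 window held 1 TCF/LEF core, which begins 19 bases after the start. Among 35114 promoters of the same length, 45.0% held a GC box, 27.4% a SOX core, 34.9% a posterior HOX core, 10.5% a paired-domain core, 12.9% a TCF/LEF core, 34.6% a CCAAT box and 11.5% a TATA box. WNT7A and FGF18 start in GC-rich sequence, with 80.3% GC and 40 CpG for WNT7A and 77.7% GC and 38 CpG for FGF18, against medians of 58.7% and 14 over all promoters. The PAX2 window (63.7% GC, 14 CpG) and the HOXA11 window (51.3% GC, 13 CpG) were nearer to those medians.

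Libraries held 1679447 to 5234905 counts (median 3047418). EIF4G2, the target of the shRNA, was at 36.8 to 164 CPM (counts scaled to library size with TMM factors) in CD133− EIF4G2KD against 193 to 360 CPM in CD133− Control. It was at 130 to 350 CPM in CD133+ EIF4G2KD against 275 to 377 CPM in CD133+ Control, where CD133+ EIF4G2KD replicate 1 overlapped the Control libraries. The log2 fold changes, −1.48 ± 0.33 (SE, edgeR adjusted p = 0.123) in CD133− cells and −0.45 ± 0.34 (SE, edgeR adjusted p = 0.523) in CD133+ cells, did not pass the test described below. PROM1 averaged 1.31 ± 0.52 CPM in CD133− EIF4G2KD, 1.93 ± 1.11 in CD133− Control (SD, n = 5 each), 21.6 ± 5.12 in CD133+ EIF4G2KD (SD, n = 5), against 13.4 ± 2.28 in CD133+ Control (SD, n = 4). CD133− EIF4G2KD replicates 2, 4 and 5 and CD133+ EIF4G2KD replicate 3 stood apart on the first principal component (scores 20.0 to 72.7, against at most 1.4 elsewhere), and the counts of members called below are also given without these 4. The same 4 had the lowest EIF4G2 levels, 36.8 to 130 CPM against 163 CPM or more in the others, and leaving them out keeps 2 libraries of CD133− EIF4G2KD, so values without them rest on fewer EIF4G2KD libraries, those with more EIF4G2. All 9 epithelial markers sought (such as EPCAM and KRT8) were in the table, with a summed level of 9222 to 15570 CPM. Of these, CLDN3, KRT19 and MUC1 were each called in at least 1 comparison. Of the markers of other cells, 0 of 9 for stroma, 0 of 7 for endothelium, 0 of 6 for kidney and 0 of 3 for thyroid were listed, and of 6 for leukocytes only CD68, with at most 9 counts in a library.

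**Figure D1:**
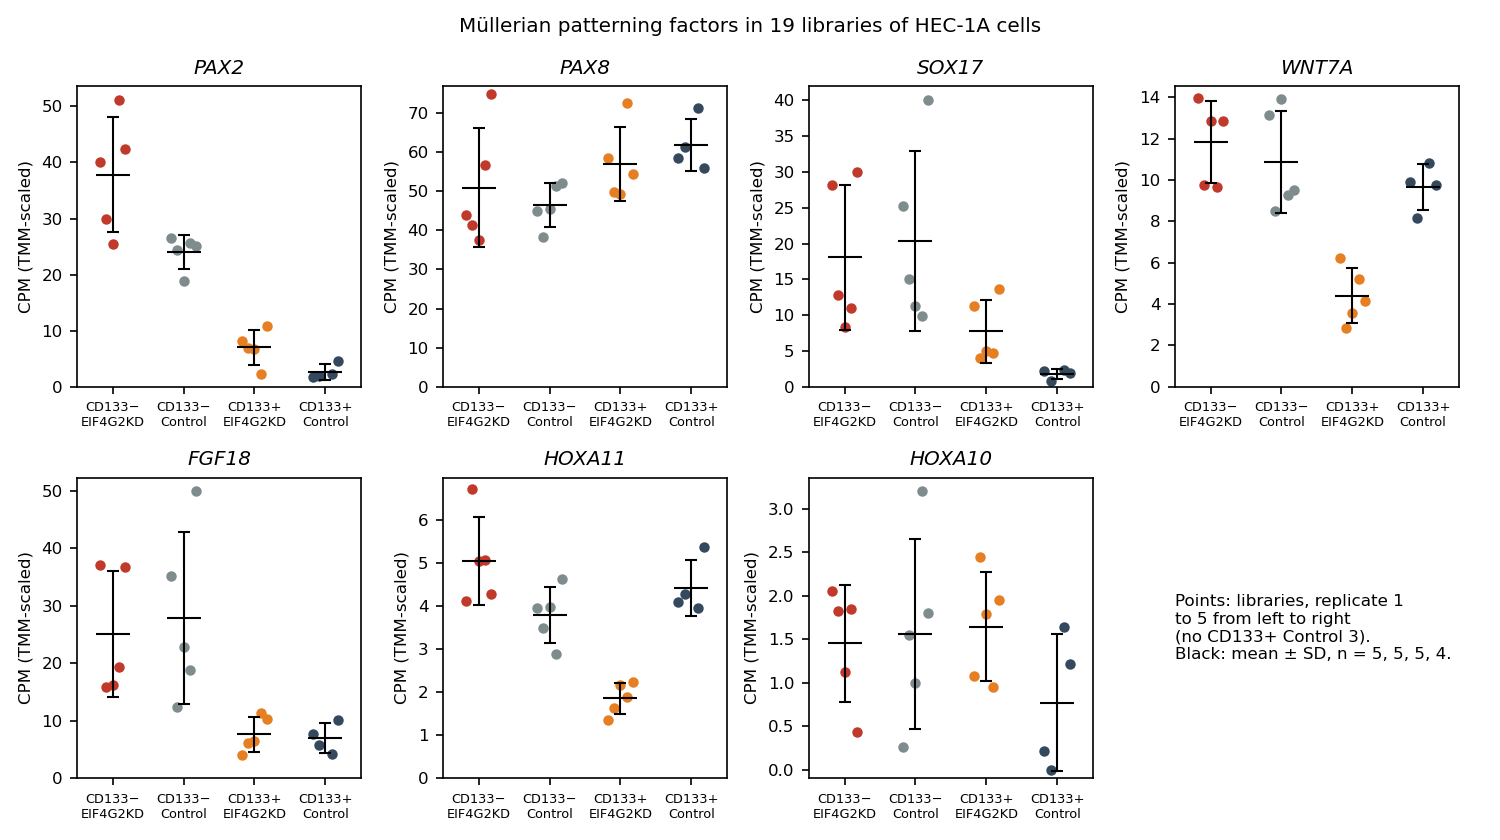
Level of each of the 7 genes in the 19 libraries (y axis, CPM scaled by TMM; x axis, the 4 populations; points are libraries, in order of replicate number, and black marks are the mean ± SD). PAX2 is at 18.9 CPM or more in every CD133− library and at 10.9 CPM or less in every CD133+ library, and WNT7A and HOXA11 are lower in the 5 CD133+ EIF4G2KD libraries than in all 14 others.

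Levels below are CPM in replicates 1 to 5 in that order, and in replicates 1, 2, 4 and 5 for CD133+ Control. Log2 fold changes and adjusted p-values come from edgeR's quasi-likelihood test with Benjamini-Hochberg adjustment over the 10338 genes tested, and the value after ± in a fold change is its standard error. A gene is called when its adjusted p is below 0.05, its log2 fold change is beyond 0.58 in size and its mean normalized count is above 10. Of the 7 genes, 6 passed the filter on low counts, all except HOXA10. Libraries of 1 group are numbered as replicates, and the series text speaks of 4 independent experiments while the numbers reach 5, so which libraries came from separate cultures is not clear. The tests therefore speak only to variation among these libraries, and part of that may be technical. In bulk libraries such as these, fewer cells that express a gene and less of its RNA per cell cannot be told apart.

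PAX2 (chromosome 10, 100735396 to 100829944, plus strand, GRCh38) was detected in every library, with 5 to 215 counts, and only 5 to 19 in CD133+ Control. It had 40.1, 29.9, 25.5, 51.1 and 42.4 CPM in CD133− EIF4G2KD, against 26.5, 24.4, 18.9, 25.6 and 25.2 CPM in CD133− Control. In CD133+ EIF4G2KD it had 8.10, 6.94, 6.82, 2.37 and 10.9 CPM, against 1.72, 1.94, 2.30 and 4.63 CPM in CD133+ Control. Thus every CD133− library lay above every CD133+ library, while EIF4G2KD and Control overlapped in both fractions, through CD133− EIF4G2KD replicate 3 and CD133+ EIF4G2KD replicate 4. CD133− cells had 8.85-fold more PAX2 than CD133+ cells in Control (log2 fold change 3.15 ± 0.34, edgeR adjusted p = 2.57e-05) and 5.20-fold more in EIF4G2KD (2.38 ± 0.28, edgeR adjusted p = 1.49e-05). Both kept their call with any 1 library left out. Within CD133+ cells PAX2 was 2.66-fold higher in EIF4G2KD (1.41 ± 0.36, edgeR adjusted p = 0.0166). It did not hold when CD133+ EIF4G2KD replicate 5 or either of CD133+ Control replicates 1 and 2 was left out (edgeR adjusted p up to 0.0709). It also failed when only these 2 populations entered the model (1.41, edgeR adjusted p = 0.064). The call held with DESeq2 (1.43, DESeq2 adjusted p = 0.00213) and with the replicate number added to the model (1.52, edgeR adjusted p = 0.0042). Within CD133− cells the log2 fold change of 0.64 ± 0.25 did not pass (edgeR adjusted p = 0.42), nor did the knock-down effects differ beyond the threshold between the fractions (0.77 ± 0.44, edgeR adjusted p = 0.502). PAX2 averaged 37.8 ± 10.2 CPM in CD133− EIF4G2KD and 24.1 ± 3.02 CPM in CD133− Control (SD, n = 5 each). In CD133+ EIF4G2KD it averaged 7.01 ± 3.06 CPM (SD, n = 5), against 2.65 ± 1.34 CPM in CD133+ Control (SD, n = 4).

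PAX8 (chromosome 2, 113215997 to 113278921, minus strand) is the other paired-box member, and its population means lay between 46.4 and 61.8 CPM. It ranged over 37.5 to 74.9 CPM in the 19 libraries and averaged 50.9 ± 15.2 in CD133− EIF4G2KD, 46.4 ± 5.56 in CD133− Control (SD, n = 5 each), 56.9 ± 9.47 in CD133+ EIF4G2KD (SD, n = 5), against 61.8 ± 6.71 CPM in CD133+ Control (SD, n = 4). PAX8 passed the test in no comparison. Its log2 fold changes were 0.13 ± 0.17 for the knock-down in CD133− cells and −0.12 ± 0.18 in CD133+ cells. In Control the CD133− libraries, at 38.3 to 52.1 CPM, all lay below the CD133+ libraries, at 56.0 to 71.3 CPM, with a log2 fold change of −0.41 ± 0.18 (edgeR adjusted p = 0.997). In EIF4G2KD the fractions overlapped (−0.16 ± 0.17, edgeR adjusted p = 0.655). PAX8 had 68 to 272 counts per library. Reads of PAX8-AS1, which overlaps it on the other strand, may be part of its counts, since whether counting used the strand is not given in the sources used here.

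SOX17 (chromosome 8, 54457935 to 54460892, plus strand) had 28.2, 12.8, 8.39, 11.1 and 30.0 CPM in CD133− EIF4G2KD, against 25.2, 15.1, 11.3, 9.92 and 40.0 CPM in CD133− Control. It had 11.3, 4.09, 5.02, 4.73 and 13.6 CPM in CD133+ EIF4G2KD, against 2.15, 0.776, 2.30 and 1.95 CPM in CD133+ Control. All CD133+ EIF4G2KD libraries lay above all CD133+ Control libraries, and in CD133− cells EIF4G2KD and Control covered much the same range. Only 2 to 10 counts per library stood behind the CD133+ Control values. In Control, CD133− cells had 10.9-fold more SOX17 than CD133+ cells (log2 fold change 3.44 ± 0.56, edgeR adjusted p = 0.00317), a call that held with any 1 library left out. In EIF4G2KD the corresponding 2.27-fold difference did not pass (1.18 ± 0.44, edgeR adjusted p = 0.112), and CD133− replicates 2, 3 and 4 lay among the CD133+ libraries. For each replicate number, though, the CD133− library was above the CD133+ library. With the replicate number added to the model this difference passed (1.20, edgeR adjusted p = 0.000619). Within CD133+ cells SOX17 was 4.27-fold higher in EIF4G2KD (2.10 ± 0.58, edgeR adjusted p = 0.0283). Leaving out CD133+ EIF4G2KD replicate 1 or 5, or 1 of the 4 libraries of CD133+ Control, removed that call (edgeR adjusted p up to 0.087). With all libraries it held with DESeq2 (2.11, DESeq2 adjusted p = 0.00293) and with the replicate number added (2.25, edgeR adjusted p = 4.45e-05). It also held with only these 2 populations in the model (2.09, edgeR adjusted p = 0.0148). Within CD133− cells the log2 fold change was −0.16 ± 0.41 (edgeR adjusted p = 0.911). The difference of the knock-down effects, 2.26 ± 0.71, did not pass (edgeR adjusted p = 0.119) but did with DESeq2 (2.29, DESeq2 adjusted p = 0.0404). It also passed with the replicate number added (2.41, edgeR adjusted p = 0.000453). Means were 18.1 ± 10.2 in CD133− EIF4G2KD and 20.3 ± 12.6 in CD133− Control (SD, n = 5 each), 7.76 ± 4.40 in CD133+ EIF4G2KD (SD, n = 5), against 1.79 ± 0.69 CPM in CD133+ Control (SD, n = 4).

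FGF18 (chromosome 5, 171419647 to 171457626, plus strand), the growth factor of the group, was higher in CD133− cells of both shRNAs. It had 37.1, 15.9, 16.2, 19.4 and 36.8 CPM in CD133− EIF4G2KD, against 35.2, 12.4, 22.9, 18.9 and 50.1 CPM in CD133− Control. It had 4.05, 6.13, 6.46, 11.4 and 10.3 CPM in CD133+ EIF4G2KD, against 7.74, 5.82, 4.27 and 10.2 CPM in CD133+ Control. Every CD133− library lay above every CD133+ library, by little in Control (12.4 against 10.2 CPM at the nearest), and EIF4G2KD overlapped Control in both fractions. CD133− cells had 3.92-fold more FGF18 in Control (log2 fold change 1.97 ± 0.40, edgeR adjusted p = 0.0347) and 3.35-fold more in EIF4G2KD (1.74 ± 0.38, edgeR adjusted p = 0.00643). In Control the call depended on replicates 1 and 5 of CD133− Control and on each of the 4 CD133+ Control libraries (edgeR adjusted p up to 0.148 with 1 of these left out). It was also lost without the 4 libraries that stood apart, none of them a Control library (1.97, edgeR adjusted p = 0.058). With only these populations in the model it was lost too (1.97, edgeR adjusted p = 0.086). It was kept with DESeq2 (1.98, DESeq2 adjusted p = 0.000714) and with the replicate number added (2.03, edgeR adjusted p = 0.000716). Of the alternatives run, the call in EIF4G2KD was lost only without the 4 libraries that stood apart (1.78, edgeR adjusted p = 0.0605). The knock-down gave log2 fold changes of −0.15 ± 0.34 in CD133− cells (edgeR adjusted p = 0.903) and 0.08 ± 0.43 in CD133+ cells (edgeR adjusted p = 0.96).

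The libraries numbered 1 and 5 were the highest for SOX17 in CD133− EIF4G2KD, CD133− Control and CD133+ EIF4G2KD, and for FGF18 in CD133− EIF4G2KD, CD133− Control and CD133+ Control. The SD of SOX17 was 56.3% of its mean in CD133− EIF4G2KD and 61.8% in CD133− Control, and that of FGF18 was 43.6% in CD133− EIF4G2KD and 53.5% in CD133− Control. Libraries 1 and 5 were also the 2 deepest in CD133− Control, CD133+ EIF4G2KD and CD133+ Control. In CD133− EIF4G2KD, replicate 3 was deeper than replicate 5 (3456382 against 2537807 counts). There replicate 3 had 8.39 CPM of SOX17 and 16.2 CPM of FGF18, against 30.0 and 36.8 CPM in replicate 5. Over all genes tested, same-numbered libraries were also the more alike, as given in the part on processing. The part of depth in these levels was not tested. WNT7A had smaller spreads in the same libraries, at 16.8% of the mean in CD133− EIF4G2KD and 22.7% in CD133− Control.

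WNT7A (chromosome 3, 13816258 to 13880071, minus strand) had 14.0, 9.76, 12.9, 9.68 and 12.8 CPM in CD133− EIF4G2KD, against 13.1, 8.52, 13.9, 9.28 and 9.50 CPM in CD133− Control. In CD133+ EIF4G2KD it had 6.21, 2.86, 3.59, 5.21 and 4.17 CPM, against 9.89, 8.14, 10.8 and 9.74 CPM in CD133+ Control. All 5 CD133+ EIF4G2KD libraries lay below each of the 14 others, of which the lowest was at 8.14 CPM. Counts per library were small, 7 to 23 in CD133+ EIF4G2KD against 21 to 46 in CD133+ Control. Within CD133+ cells WNT7A was 2.17-fold lower in EIF4G2KD (log2 fold change −1.11 ± 0.24, edgeR adjusted p = 0.00496), and this call held with any 1 library left out (edgeR adjusted p at most 0.0172). Within EIF4G2KD it was 2.68-fold higher in CD133− than in CD133+ cells (1.42 ± 0.23, edgeR adjusted p = 0.000381). Neither the knock-down in CD133− cells (0.14 ± 0.21, edgeR adjusted p = 0.837) nor the sort in Control (0.17 ± 0.22, adjusted p = 1.0) gave a call. The knock-down effect differed between the fractions, by −1.25 ± 0.31 (edgeR adjusted p = 0.0414). This call was lost without any 1 of 13 libraries (edgeR adjusted p up to 0.0921) and kept without any 1 of the other 6, which were CD133− EIF4G2KD replicates 2 and 4, CD133− Control replicates 1 and 3 and CD133+ EIF4G2KD replicates 1 and 4. WNT7A averaged 11.8 ± 1.98 in CD133− EIF4G2KD, 10.9 ± 2.47 in CD133− Control (SD, n = 5 each), 4.41 ± 1.32 in CD133+ EIF4G2KD (SD, n = 5), against 9.65 ± 1.12 CPM in CD133+ Control (SD, n = 4), and of the 4 comparisons the 2 that hold CD133+ EIF4G2KD were called.

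HOXA11 (chromosome 7, 27181157 to 27185232, minus strand) was likewise lowest in CD133+ EIF4G2KD. It had 4.10, 6.71, 5.03, 5.07 and 4.28 CPM in CD133− EIF4G2KD, against 3.94, 3.49, 3.98, 2.88 and 4.62 CPM in CD133− Control. In CD133+ EIF4G2KD it had 1.35, 1.63, 2.15, 1.89 and 2.23 CPM, against 4.08, 4.27, 3.94 and 5.36 CPM in CD133+ Control. Again all 5 CD133+ EIF4G2KD libraries lay below each of the 14 others, whose lowest was 2.88 CPM. These are small counts, 4 to 8 per library in CD133+ EIF4G2KD against 11 to 22 in CD133+ Control, and HOXA11-AS overlaps the gene on the other strand. HOXA11 was 2.37-fold lower in CD133+ EIF4G2KD than in CD133+ Control (log2 fold change −1.24 ± 0.26, edgeR adjusted p = 0.00478). It was 2.63-fold higher in CD133− EIF4G2KD than in CD133+ EIF4G2KD (1.40 ± 0.25, edgeR adjusted p = 0.00141). Both calls held with any 1 library left out. The knock-down in CD133− cells (0.37 ± 0.28, edgeR adjusted p = 0.631) and the sort in Control (−0.22 ± 0.25, adjusted p = 1.0) gave none. The knock-down effects differed by −1.61 ± 0.35 (edgeR adjusted p = 0.0154), a call lost only without CD133+ Control replicate 5 (edgeR adjusted p = 0.0567) or without the 4 libraries that stood apart (−1.56, edgeR adjusted p = 0.088).

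HOXA10 (chromosome 7, 27170605 to 27180261, minus strand) lies next to HOXA11 but was close to the limit of detection, with 0 to 11 counts per library and 83 in all 19. It had 2.05, 1.83, 1.12, 1.84 and 0.43 CPM in CD133− EIF4G2KD, against 0.26, 1.55, 0.99, 3.20 and 1.80 CPM in CD133− Control. It had 1.08, 2.45, 1.79, 0.95 and 1.95 CPM in CD133+ EIF4G2KD, against 0.21, 0, 1.64 and 1.22 CPM in CD133+ Control. The count of 0, in CD133+ Control replicate 2, allows a level of up to 1.16 CPM (3 counts), a limit that covers counting error only. The populations overlapped throughout, and two-sided exact permutation tests over libraries gave p = 0.865 for the knock-down in CD133− cells, 0.127 for the knock-down in CD133+ cells, 0.278 for the sort in Control and 0.675 for the sort in EIF4G2KD (0.865, 0.508, 0.556 and 0.865 after adjustment over the 4). In the annotation it overlaps HOXA9 on the same strand and HOXA10-AS on the other, so its few reads are uncertain.

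**Figure D2:**
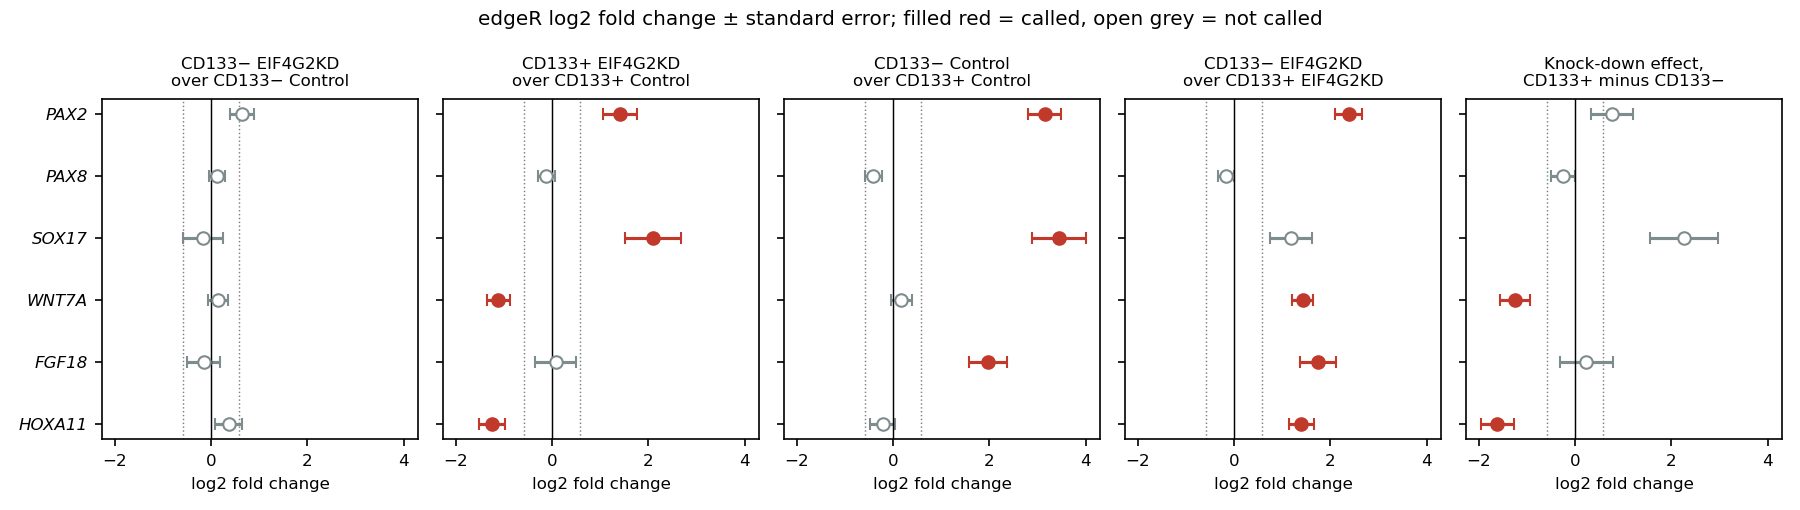
Log2 fold changes (x axis, with standard errors; dotted lines at ±0.58) of the 6 genes tested, in the 4 comparisons and in the difference of the knock-down effects. Filled red points are called, and the 4 called in CD133+ cells point both ways, with PAX2 and SOX17 higher and WNT7A and HOXA11 lower in EIF4G2KD.

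In the comparison of CD133− EIF4G2KD with CD133− Control, 0 of the 6 genes tested were called by edgeR, where 0.00967% of all 10338 genes were. At an unadjusted p below 0.05 edgeR gave 1, PAX2, and DESeq2 called 0. The libraries overlapped for all 6, where 1.45% of all genes did not overlap (0.832% higher and 0.619% lower). The median log2 fold change of the 6 was 0.13, against 0.02 over all genes tested. In the comparison of CD133+ EIF4G2KD with CD133+ Control, 4 of the 6 were called, where 5.99% of all genes were. PAX2 and SOX17 were higher, as were 2.59% of all genes, and WNT7A and HOXA11 were lower, as were 3.4% of all genes. The median log2 fold change was −0.02, against 0.01 over all genes, since the members moved in opposite directions. EIF4G2KD and Control libraries did not overlap for 3 of the 6, SOX17 on the higher side and WNT7A and HOXA11 on the lower, where 10.1% of all genes did not overlap (4.46% higher and 5.59% lower). The count of calls stayed at 4 without the 4 libraries that stood apart.

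In the comparison of CD133− Control with CD133+ Control, 3 of the 6 were called, where 0.232% of all genes were. PAX2, SOX17 and FGF18 were all higher in CD133− cells, the direction of 0.184% of all genes, with 0.0484% called lower, and PAX2 and SOX17 ranked 3 and 13 by p among the 10338. The paper itself names these 3 genes among those that differed between the same populations. It places them in a set of stem cell and lineage markers, which it relates to a more stem-like phenotype of CD133+ cells. Its main text gives no direction for the 3, which here were all higher in CD133− cells. The members were chosen with earlier results of these data known, so no share or rank, here or in the other comparisons, is independent support. The fractions did not overlap for these 3 on the higher side and for PAX8 on the lower, where 2.44% of all genes did not overlap (1.33% higher and 1.11% lower). The median log2 fold change was 1.07, against 0 over all genes. In the comparison of CD133− EIF4G2KD with CD133+ EIF4G2KD, 4 of the 6 were called, where 5.86% of all genes were. PAX2, WNT7A, HOXA11 and FGF18 were higher in CD133− cells, the direction of 3.49% of all genes, with 2.37% called lower, and the median was 1.41 against −0.01 over all genes. The fractions did not overlap for these 4, where 6.51% of all genes did not overlap (3.93% higher and 2.58% lower). Without the 4 libraries that stood apart, 2 were called in Control and 3 in EIF4G2KD, FGF18 being lost in both.

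The knock-down effect in CD133+ cells minus that in CD133− cells was called for 2 of the 6, WNT7A and HOXA11, both lower in CD133+ cells, where 1.9% of all genes were called, 1.33% in that direction and 0.561% in the other. This count was 0 without the 4 libraries that stood apart (WNT7A −1.36, edgeR adjusted p = 0.0827). These comparisons share populations, so their calls are not independent. A gene low in CD133+ EIF4G2KD alone, such as WNT7A or HOXA11, enters 3 of them through the same 5 libraries.

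**Figure D3:**
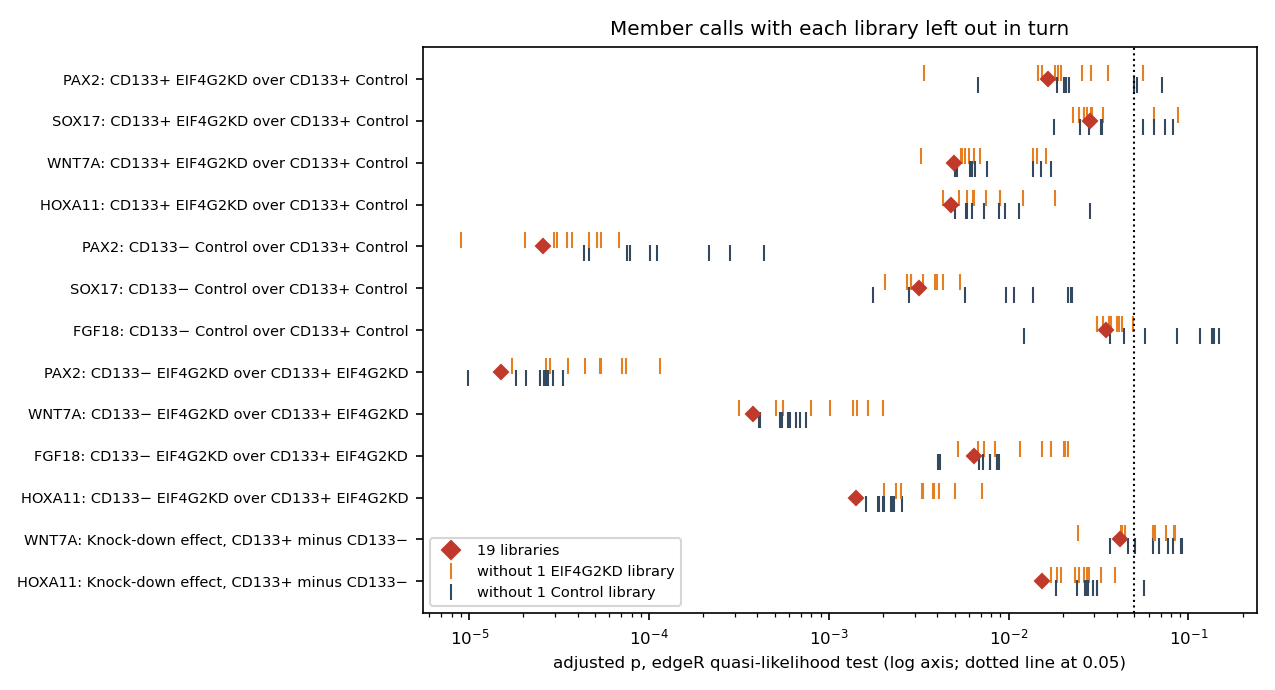
Adjusted p (x axis, log scale, edgeR quasi-likelihood test) of the 13 calls on the 6 genes tested, with all 19 libraries (diamonds) and with each library left out in turn (ticks, EIF4G2KD and Control libraries in separate colors). Ticks pass the dotted line at 0.05 for PAX2 and SOX17 in CD133+ cells, FGF18 in Control and both differences of the knock-down effects, and for none of the other 8 calls.

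Other genes of the same pathways were read from lists of known members, and their calls stand beside shares over all genes of 5.99% for CD133+ EIF4G2KD against CD133+ Control, 5.86% for CD133− EIF4G2KD against CD133+ EIF4G2KD and 1.9% for the difference of effects. With so few genes tested in each list, 1 or 2 calls are not set apart from those shares. In the network of PAX and EYA genes with other duct factors, 13 of 38 genes were in the table and 9 were tested. SALL1, a zinc-finger factor of the developing kidney, was higher in CD133+ EIF4G2KD, at 17.1 ± 4.33 CPM (SD, n = 5) against 8.44 ± 3.81 CPM (SD, n = 4) in CD133+ Control (1.00 ± 0.29, edgeR adjusted p = 0.036). PBX3, a cofactor that binds DNA together with HOX proteins, was lower in CD133+ EIF4G2KD, at 2.62 ± 0.81 CPM (SD, n = 5) against 12.3 ± 3.02 CPM (SD, n = 4) in CD133+ Control (−2.17 ± 0.26, edgeR adjusted p = 2.6e-05), while CD133− EIF4G2KD had 10.1 ± 2.35 and CD133− Control 11.4 ± 1.98 CPM (SD, n = 5 each). For PBX3 the difference of the knock-down effects was −1.98 ± 0.35 (edgeR adjusted p = 0.0032), in the same direction as for WNT7A and HOXA11. Of 19 other SOX genes, 4 were in the table and 3 were tested, SOX4, SOX9 and SOX13, with edgeR adjusted p of 0.15 or more.

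The HOX genes other than the 2 members gave 15 tested genes of 20 in the table. HOXA5 alone was called, at 67.4 ± 17.9 CPM (SD, n = 5) in CD133+ EIF4G2KD against 34.6 ± 3.49 CPM (SD, n = 4) in CD133+ Control (0.95 ± 0.25, edgeR adjusted p = 0.019). Of 5 noncoding genes of the HOXA cluster that the table lists, 3 were tested. HOXA10-AS, which runs against HOXA10, was lower in CD133+ EIF4G2KD, at 14.5 ± 2.16 CPM (SD, n = 5) against 30.3 ± 5.74 CPM (SD, n = 4) in CD133+ Control (−1.06 ± 0.17, edgeR adjusted p = 0.00053), and its knock-down effects differed between the fractions by −1.32 ± 0.24 (edgeR adjusted p = 0.0037). HOTAIRM1, a long noncoding RNA of the cluster, was higher in CD133− EIF4G2KD, at 606 ± 66.3 CPM, than in CD133+ EIF4G2KD, at 298 ± 22.8 CPM (1.02 ± 0.15, edgeR adjusted p = 0.00015; SD, n = 5 each). Of the 9 cluster genes tested of 13 in the table, those called lower in CD133+ EIF4G2KD than in CD133+ Control were HOXA11 and HOXA10-AS, whose starts lie 16.6 kb apart, and HOXA5, 41.6 kb from the HOXA11 start, was called higher. HOXA2, HOXA3 and HOXA4 had log2 fold changes of −0.04 to 0.08 there, HOTAIRM1 had 0.06 and HOXA-AS2 had −0.16. HOXA6, 34.6 kb from the HOXA11 start, had 1.06 ± 0.34 without a call (edgeR adjusted p = 0.065). In CD133− cells HOXA6 had 0.73 ± 0.31 (edgeR adjusted p = 0.44).

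**Figure D4:**
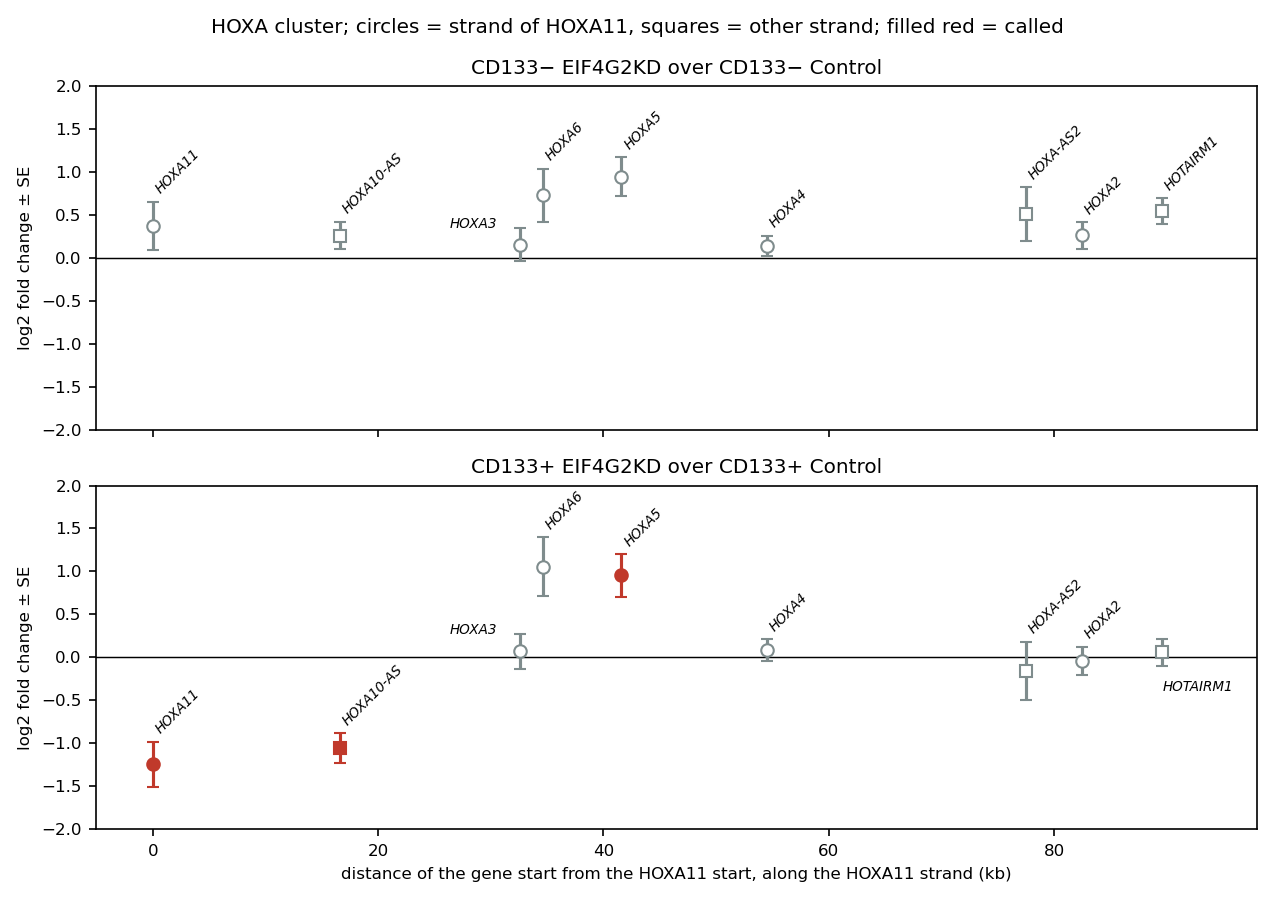
Log2 fold change for the knock-down (y axis, with standard errors) of 9 HOXA cluster genes tested, in CD133− cells (above) and CD133+ cells (below), against the distance of the gene start from that of HOXA11 (x axis, kb; circles on the strand of HOXA11, squares on the other). In CD133+ cells HOXA11 and HOXA10-AS are called lower and HOXA5 is called higher, and in CD133− cells HOXA5 has 0.95 ± 0.23 without a call.

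Around WNT7A, 5 of 16 other WNT ligands were in the table and 3 were tested. WNT7B, its closest relative, was higher in CD133− EIF4G2KD, at 249 ± 65.2 CPM, than in CD133+ EIF4G2KD, at 86.9 ± 15.4 CPM (1.51 ± 0.19, edgeR adjusted p = 2.3e-05; SD, n = 5 each), and WNT10A was also higher there (0.79 ± 0.18, edgeR adjusted p = 0.0099). Unlike for WNT7A, the WNT7B value for the knock-down in CD133+ cells did not pass (−0.24 ± 0.19, edgeR adjusted p = 0.55). Of 13 receptors and secretion factors tested, 1 was called in CD133− EIF4G2KD against CD133+ EIF4G2KD, near the 5.86% of all genes. It was FZD4, a WNT receptor, higher in CD133− EIF4G2KD than in CD133+ EIF4G2KD (1.11 ± 0.32, edgeR adjusted p = 0.036). Of 5 inhibitors and β-catenin targets tested, 2 were called in the same comparison. ZNRF3, which removes WNT receptors from the surface, was higher in CD133− EIF4G2KD (1.04 ± 0.30, edgeR adjusted p = 0.038), and DKK3, of the Dickkopf family, was lower (−1.34 ± 0.36, edgeR adjusted p = 0.024).

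Around FGF18, 3 of 21 other FGF ligands were in the table, and FGF11 and FGF21 were tested, with edgeR adjusted p of 0.317 or more. The 4 FGF receptor kinases were also tested, and FGFR4 came nearest to a call, in CD133− EIF4G2KD against CD133+ EIF4G2KD (−1.05, edgeR adjusted p = 0.086). Of 18 receptors, feedback regulators and targets tested, 2 were called, both higher in CD133− EIF4G2KD than in CD133+ EIF4G2KD, where 3.49% of all genes were called higher. SPRY1, a feedback inhibitor of FGF signalling, was at 52.5 ± 13.0 against 19.6 ± 3.88 CPM (1.42 ± 0.20, edgeR adjusted p = 9.5e-05; SD, n = 5 each). ETV4, a transcription factor induced by FGF, was at 162 ± 40.1 against 85.7 ± 25.4 CPM (0.92 ± 0.24, edgeR adjusted p = 0.019; SD, n = 5 each). Among genes of endometrial epithelium and hormone response, 9 of 22 were in the table and 6 were tested. SPP1, osteopontin, was higher in CD133+ EIF4G2KD, at 1048 ± 216 CPM (SD, n = 5) against 387 ± 93.5 CPM (SD, n = 4) in CD133+ Control (1.44 ± 0.23, edgeR adjusted p = 0.00039). ITGB3, its integrin receptor subunit, was lower in CD133− EIF4G2KD than in CD133+ EIF4G2KD (−1.28 ± 0.34, edgeR adjusted p = 0.023).

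The genes most alike to each called member were those with the smallest root mean square difference of log2 CPM, centred per gene, over the 19 libraries. LINC02582, a long noncoding RNA, was nearest to both PAX2 (0.57) and SOX17 (0.53) among 10337 genes. It averaged 72.6 ± 22.8 in CD133− EIF4G2KD, 55.7 ± 23.5 in CD133− Control (SD, n = 5 each), 20.9 ± 11.0 in CD133+ EIF4G2KD (SD, n = 5), against 4.61 ± 1.68 CPM in CD133+ Control (SD, n = 4), the order that PAX2 has. Next to PAX2 came F3, which encodes tissue factor (0.62), and TNS4 (0.67), with SOX17 at rank 8 (0.77) and FGF18 at rank 17 (0.93), while PAX2 was at rank 545 among the genes nearest to FGF18. Next to SOX17 came SMOC2 (0.70) and CERNA2 (0.73), with PAX2 at rank 7 and FGF18 at rank 9, while SOX17 was at rank 36 from FGF18. FGF18 was nearest to ACAT2 (0.53), SMOC2 (0.57) and TNS4 (0.61). WNT7A was nearest to INPP1 (0.31), ZNF274 (0.32) and LRFN4 (0.33), with HOXA11 at rank 28 (0.39). HOXA11 was nearest to UBAP1 (0.24), DOK7 (0.27) and APOM (0.275), with WNT7A at rank 231. UBAP1 shows the shared shape, with 54.5 ± 3.89 in CD133− EIF4G2KD, 46.6 ± 5.42 in CD133− Control (SD, n = 5 each), 27.8 ± 5.11 in CD133+ EIF4G2KD (SD, n = 5) and 58.1 ± 9.03 CPM in CD133+ Control (SD, n = 4). The points share library, depth and scaling.

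Genes near the members were also read, to see whether whole regions moved. Within 1 Mb of PAX2 the 23 other genes tested had a median log2 fold change of −0.05 between CD133− Control and CD133+ Control, where PAX2 had 3.15. The 5 genes around SOX17 had a median of −0.04 and the 6 around FGF18 of 0.11 in the same comparison, where SOX17 had 3.44 and FGF18 1.97. Of 11 around WNT7A, RPL32 alone was called for the knock-down in CD133+ cells, and it was higher where WNT7A was lower. Of 16 around HOXA11, HOXA10-AS and HOXA5 were called in that comparison, with values given above.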

How the data were processed

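Per the labels, bulk MARS-seq libraries were made from HEC-1A cells, and 19 of 20 samples have counts. According to the submitters' processing notes, reads were trimmed with cutadapt, aligned with STAR 2.4.2a and counted with HTSeq, and hg38 and mm10 are both listed as builds. The study's methods name hg38. The annotation used for counting is not given in the sources used here. The authors deposited whole-number counts per gene that were not normalized, and only these were used. They also deposited a normalized signal, the counts divided by DESeq2 size factors, and the fold changes and p-values of their own comparisons, none of which was used. No gene of the table has a highest count below 6, so lower genes are not analysed here.

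Tests used edgeR 4.0.16 in R 4.3.3 with TMM scaling, a filter on low counts (minimum count 10, minimum total 15) that left 10338 genes, and 1 quasi-likelihood model with a mean per population. P-values were adjusted by Benjamini-Hochberg over these genes, and standard errors were taken from the fold change and its p. Calls needed an adjusted p under 0.05 together with a log2 fold change over 0.58 in either direction and a normalized count averaging over 10. These are the thresholds of the study's methods, which name DESeq2. The script was tested on simulated data. HOXA10 was compared by two-sided exact permutation tests over libraries. Genes were named by rule: all 7 members, up to 4 called genes of each pathway list with the smallest adjusted p, and the 3 genes most alike to each called member. FGFR4, HOXA6, HOXA-AS2, the tested SOX genes and FGF ligands and the called neighbours of members were added after their values were seen. A further gene of the lists is not reported here. The members and lists were chosen with earlier results of these data known.

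The alternatives tried were DESeq2 1.42.0, RLE size factors, no filter, a block on replicate number, models of only the 2 populations compared, calls by adjusted p alone, dropping 4 libraries that stood apart, and dropping each library in turn. Within populations, 36 pairs of libraries gave a chi-square per degree of freedom of 4.7 to 27.0, so none was a duplicate. At 100 counts the counting error is 10%. Positions are from GENCODE on GRCh38 and promoters from RefSeq on GRCh38.p14. Figures used matplotlib 3.10.9.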

Additional observations from a re-analysis of the deposited data

Results flagged for a closer look

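PAX2 in CD133− Control replicate 3, at 18.9 CPM, lay below the other 4 libraries of its group, of which the nearest had 24.4 CPM. The gap was 0.72 of the range of the group, above Dixon's 95% critical value for 5 samples. Of 28 groups of libraries examined for the 7 genes it was the only one, and chance gives about 1 in 20.

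The knock-down effect differed between the CD133+ and CD133− fractions for WNT7A (−1.25, edgeR adjusted p = 0.0414) and for HOXA11 (−1.61, edgeR adjusted p = 0.0154), by a test of the difference itself. For both genes all 5 CD133+ EIF4G2KD libraries were below all 4 CD133+ Control libraries, while EIF4G2KD and Control libraries overlapped in CD133− cells. Without the 4 libraries that stood apart on the first principal component, which also had the lowest EIF4G2 levels, the differences were −1.36 for WNT7A and −1.56 for HOXA11 and did not pass (edgeR adjusted p = 0.0827 for WNT7A and 0.088 for HOXA11).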

How the results depend on the processing

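Over 6 other settings (RLE scaling, no filter, DESeq2, replicate block, only the populations compared, and without the 4 libraries that stood apart), 163 of 174 log2 fold changes of the 6 genes kept their direction and their side of the threshold. Without the 4 libraries, 0 members were called for the difference of the knock-down effects, and PAX8 changed sign in CD133− cells (−0.18) and in the difference (0.11), both uncalled. These are the 4 libraries with the lowest EIF4G2, and 2 libraries of CD133− EIF4G2KD remain without them.

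Leaving out 1 library at a time kept 533 of 570 values. The members called ranged over 2 to 4 for the knock-down in CD133+ cells, 2 to 3 for the sort in Control and 0 to 2 for the difference. Uncalled values that changed sign ranged over −0.053 to 0.22 for PAX8, −0.41 to 0.24 for SOX17 and −0.35 to 0.17 for FGF18 with the knock-down in CD133− cells, and for FGF18 over −0.10 to 0.32 in CD133+ cells and −0.09 to 0.49 in the difference.

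Whether equal replicate numbers pair libraries was checked by their deviations from the population means. Correlations between same-numbered libraries of 2 populations were above 0.1 in 24 of 27 cases (median 0.42, lowest −0.23, highest 0.70), different numbers had a median of −0.09, and 12 of 19 libraries correlated best with their own number. The number was to count as a pairing only if all pairs were above 0.1, and 3 were not, so the main model leaves it out. Same-numbered libraries were still the more alike, and what they share counts as spread within populations in that model. Libraries were left out 1 at a time only in models without the number. With the number as a block, SOX17 passed the sort in EIF4G2KD (1.20, edgeR adjusted p = 0.000619) and the difference (2.41, edgeR adjusted p = 0.000453), and no other call on a member changed. Over all genes tested, the block called 80 for the knock-down in CD133− cells, 1025 in CD133+ cells, 54 for the sort in Control, 962 in EIF4G2KD and 588 for the difference, where 1, 619, 24, 606 and 196 were called without it. DESeq2 called 39 for the knock-down in CD133− cells, 729 in CD133+ cells, 44 for the sort in Control, 704 in EIF4G2KD and 319 for the difference. For the 4 comparisons of populations the paper, which used DESeq2, reports more genes than DESeq2 or the main model called here. Why the counts differ was not tested. With only the populations compared, 0 were called for the knock-down in CD133− cells and 13 for the sort in Control. Without the 4 libraries, 0 were called for the knock-down in CD133− cells, 271 for the sort in EIF4G2KD and 108 for the difference. Leaving out 1 library gave 0 to 59 for the knock-down in CD133− cells, 14 to 25 for the sort in Control (14 without CD133+ Control replicate 5) and 124 to 208 for the difference. With 2 to 22 counts per library, SOX17 in CD133+ Control and HOXA11 throughout are limited by depth. The same limit holds for PAX2 in CD133+ Control (5 to 19 counts) and WNT7A in CD133+ EIF4G2KD (7 to 23 counts).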
